A study of Homo sapiens with 27 samples.

Results

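The genes described here were the 709 protein-coding genes whose annotated 3' UTR region was short and whose polyadenylated ends were well counted. A gene was a member if its row in the 3' UTR count table had a Length of 600 bases or less, of which 300 bases were an extension added past the annotated end, and if it had 270 or more reads summed over the 27 libraries. Of the 19540 rows in that table, 2469 had a Length of 600 or less and 709 of these passed the read minimum. All 709 were also found in the table of 10 kb downstream regions. They were set beside 4282 genes of middle length, with a Length of 1000 to 3000 bases and the same read minimum. The members' Lengths ran from 301 to 600 bases with a median of 476.

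Libraries were made by PAC-seq (Poly(A)-ClickSeq), which reads the junction of a transcript with its poly(A) tail and so counts where transcripts end. The 3 human prostate cancer cell lines were LNCaP, which is hormone-sensitive, LNCaP95, an androgen-independent derivative of LNCaP, and 22Rv1, which is hormone-insensitive. Each line carried a lentiviral shRNA, either a control (CTRL sh) or a hairpin targeting CPSF1, of which there were 2, CPSF1 sh1 and CPSF1 sh2. Each combination had 3 libraries, labelled BR1 to BR3. Cells were selected with puromycin and harvested 72 h after seeding, LNCaP and 22Rv1 in RPMI with 10% FBS and LNCaP95 in phenol red-free medium. The values thus describe infected cells that survived selection, and in bulk libraries fewer expressing cells and less RNA per cell cannot be told apart. The study's methods call the libraries of a group biological replicates.

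CPSF1 belongs to CPSF, the complex that directs cleavage and polyadenylation of pre-mRNA. CPSF recognises the AAUAAA signal near the end of a transcript, after which the RNA is cut and a poly(A) tail is added. When a signal is passed over, transcription continues downstream until another signal is used, and ends then appear beyond the annotated 3' UTR. The downstream share used below is the number of reads in the 10 kb downstream region as a percentage of 10 kb reads plus 3' UTR reads of the same gene and library. A gene's share therefore does not depend on how deeply the library was sequenced. Housekeeping genes, among them many ribosomal protein genes, often have short 3' UTRs.

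The ends of the members described one by one below are shown so that the signal in each can be seen. Each line gives 30 bases of hg19, read 5′ to 3′ on the strand of the gene, with the hexamer AATAAA or ATTAAA in capitals. Where neither hexamer lay in the last 50 bases before the annotated end, the 30 bases that end there are printed in lower case. The first 10 lines are the members with the largest mean rise of the downstream to 3' UTR ratio among 37 that met the rule for named genes. The place of GMNN among them rests on a fitted rise of 9.14 (log2) in LNCaP95, where its controls held no window read. The next 4 are members whose ratio fell by the same rule.
HSPA8: tgcaatgtcttaAATAAAactatttaaaat
PARP4: ctaacaagcaatAATAAAatgaaacttaaa
LDHB: agctcttgaacaAATAAAattaactattgt
S100A11: cctgccaatagtAATAAAgcaatgtcactt
ZNF32: aagagtatgaaaAATAAAtgtcttgtttat
RPS12: aagaaatgaagaAATAAAtctttggctcac
SLC25A5: aaaaatatctaaAATAAAttttgtctgcag
MYEOV2: gtcctcactccaATTAAAagaaagcaatgt
GMNN: taatgaaatataaggagtatgtgtagaaaa
RPS27A: ttatatttaatgtaagttgtctaaatataa
C19orf18: tgtatcccagaaAATAAAgccacatgatat
ST20: ccctatttaatgAATAAAttgtatgtattt
MICAL1: ttgctgtttacaATTAAAatgtttctgcca
LRRC37A3: gtcatataataccacatacttgaactcctg
The HSPA8 stretch lies at chr11:122928210-122928239 on the minus strand, that of PARP4 at chr13:24995072-24995101 on the minus strand, that of LDHB at chr12:21788282-21788311 on the minus strand and that of RPS12 at chr6:133138673-133138702 on the plus strand. SLC25A5 lies at chrX:118605265-118605294 on the plus strand and LRRC37A3 at chr17:62850430-62850459 on the minus strand. The SLC25A5 stretch runs past its annotated end into the extension, and the other stretches end within the annotated 3' UTR. That of RPS12, with a Length of 322 bases, begins upstream of its 3' UTR region.

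AATAAA was found in the last 50 bases of 451 of the 709 members (63.6%), against 61.2% of the middle-length genes and 59.4% of all rows. ATTAAA without AATAAA was found in 15.4% of members and in 15.4% of middle-length genes, and neither in 21.0% and 23.5%. On the opposite strand AATAAA was found in 6.49% of members. Members differed more from middle-length genes in where their windows fell. The 10 kb window overlapped the window of another gene in 25.3% of members and 12.4% of middle-length genes, and 28.4% against 23.8% overlapped an intron of another gene. A newer human annotation placed a same-strand exon of another gene inside the window of 228 of the 691 members found in it (33.0%) and of 28.6% of the middle-length genes found. For 72 members (10.2%) the window did not begin where the 3' UTR region ended.

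The members took 9.06 to 11.2% of all 3' UTR reads in a library, 184070 to 689778 reads, and 5802 to 26554 reads of a library fell in their 10 kb regions. In the whole series, 3452413 to 12425417 reads per library were counted over all region types. CPSF1 itself, counted at its 3' UTR, ran from 136 to 179.9 CPM (counts scaled to the reads of the 3' UTR table) in LNCaP CTRL sh libraries and from 53.5 to 97.2 CPM in the knockdown libraries. The corresponding ranges were 66.8 to 110.2 and 34.2 to 59.3 CPM in LNCaP95, and 134.9 to 199.4 and 85.3 to 116.1 CPM in 22Rv1, so that control and knockdown libraries did not overlap in any line (edgeR, log2 change −1.19, −1.06 and −0.72, adjusted p = 7.4e-05, 0.00021 and 0.017). HOXB13 and KLK2 were counted in all libraries, and TMPRSS2 was low in 22Rv1 (3.91 to 16.7 CPM). Of 7 markers of other cell types, PTPRC and CD3E of leukocytes were below 1 CPM in every library, and COL3A1, VWF and DCN reached at most 1.94, 4.38 and 2.83 CPM. CD68 was counted in all libraries, at 1.42 to 23.99 CPM, and was highest in LNCaP95. COL1A1, a fibrillar collagen gene, was highest in LNCaP95 (25.8 to 41.3 CPM), where LNCaP had 6.8 to 20.7 and 22Rv1 5.11 to 11.2 CPM. The part of these markers in the results was not tested. Outside the members, RPS2, a middle-length ribosomal protein gene, had 41133 10 kb reads in LNCaP CTRL sh BR2 and 45167 in LNCaP CPSF1 sh2 BR2 and at most 17 in any other library.

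The first question was how far short 3' UTR genes were read past their ends in control cells and after knockdown of CPSF1. Pooled over members, the downstream share of LNCaP CTRL sh libraries was 2.53, 2.18 and 2.32%. It was 3.06, 2.99 and 3.14% with CPSF1 sh1 and 3.53, 3.50 and 3.61% with CPSF1 sh2. In LNCaP95 the controls were at 1.71, 1.80 and 2.02%, CPSF1 sh1 at 3.40, 4.18 and 3.39% and CPSF1 sh2 at 5.29, 4.05 and 3.99%. All 6 knockdown libraries lay above all 3 controls in each of these lines. In 22Rv1 the controls were at 3.06, 2.38 and 2.39%, CPSF1 sh1 at 3.78, 3.55 and 3.61% and CPSF1 sh2 at 3.71, 4.04 and 4.05%, again without overlap. The mean rose from 2.34 ± 0.17 (SD, n = 3) to 3.30% ± 0.27 (SD, n = 6) in LNCaP, from 1.84 ± 0.16 to 4.05% ± 0.70 in LNCaP95 and from 2.61 ± 0.39 to 3.79% ± 0.21 in 22Rv1, a knockdown to control ratio of 1.41, 2.20 and 1.45. No p is given for these pooled values, since the members were chosen with results of these data known.

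**Figure D1:**
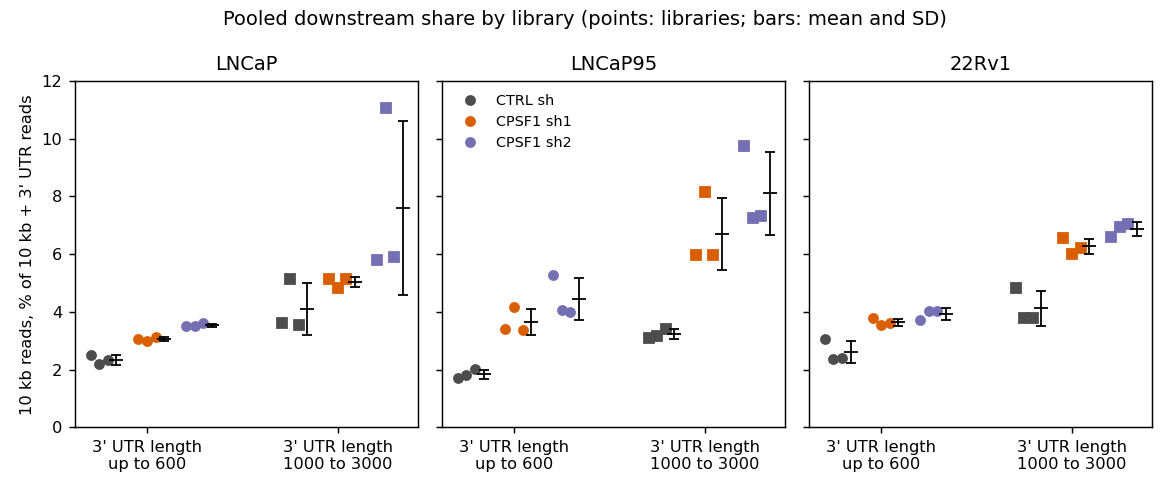
Pooled downstream share (10 kb reads as a percentage of 10 kb plus 3' UTR reads) of the 709 short 3' UTR genes and the 4282 genes of 1000 to 3000 bases, with 1 point per library and the mean and SD of each group of 3 libraries. Short 3' UTR genes lie below middle-length genes in all 27 libraries. The middle-length point at 11.1% is LNCaP CPSF1 sh2 BR2, a library with 45167 10 kb reads of RPS2.

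Middle-length genes had higher shares than the members in all 27 libraries. Their means were 4.11% ± 0.91 in LNCaP controls and 6.32% ± 2.37 after knockdown, 3.22 and 7.41% in LNCaP95 and 4.13 and 6.57% in 22Rv1. The knockdown to control ratio was 1.54, 2.30 and 1.59 in LNCaP, LNCaP95 and 22Rv1. RPS2 carried part of the LNCaP values, since without it the middle-length means of LNCaP were 3.69% ± 0.15 and 5.75% ± 0.66. The members' share was thus 0.59, 0.57 and 0.63 of that of middle-length genes in the controls of the 3 lines. On the log2 scale the pooled 10 kb to 3' UTR ratio of the members rose by 0.51, 1.15 and 0.56, and that of middle-length genes by 0.61, 1.24 and 0.72.

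The lower share held for the typical gene too. In each library the median of the members' shares was taken and then averaged over libraries. The median member stood at 1.62, 1.17 and 1.71% in the control libraries of LNCaP, LNCaP95 and 22Rv1 and at 2.70, 4.0 and 4.57% after knockdown. The median middle-length gene stood at 2.89, 2.13 and 3.07%, and at 5.32, 7.85 and 7.0% after knockdown. By these medians the log2 ratio rose by 0.74, 1.80 and 1.45 for members and by 0.91, 1.94 and 1.26 for middle-length genes. The smaller rise of the members thus did not hold in 22Rv1. Within the members the shortest regions had the lowest shares. For Lengths of 301 to 400 bases (174 genes) the median gene was at 0.88, 0.39 and 0.90% in controls and 1.42, 2.01 and 2.93% after knockdown. For 501 to 600 bases (294 genes) it was at 1.86, 1.55 and 1.96%, and at 3.26, 4.92 and 5.67% after knockdown. Genes over 3000 bases had medians of 2.61, 2.08 and 3.10% in controls, close to those of the middle-length genes, but their pooled shares of 7.40, 5.36 and 7.48% were above the 4.11, 3.22 and 4.13% of the middle-length genes. Different genes make up each Length group, and these differences were not tested.

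**Figure D2:**
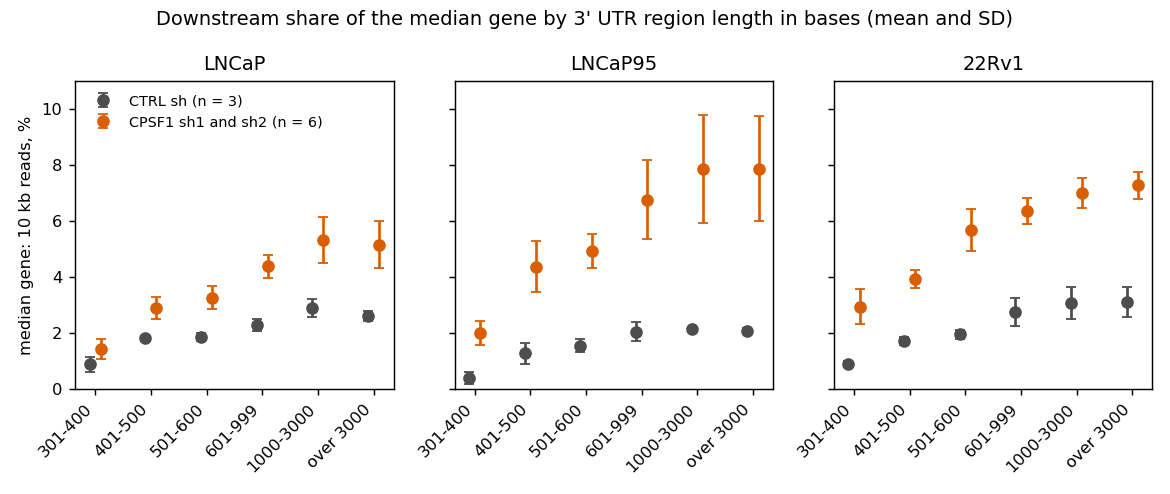
Downstream share of the median gene (percent, linear axis) by Length of the 3' UTR region in bases, for CTRL sh (3 libraries) and for both CPSF1 hairpins (6 libraries), as mean and SD over libraries. The 301 to 400 base group has the lowest median in every line, and knockdown means lie above control means in each group.

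Members varied widely around these medians. In LNCaP controls 272 of 706 members with reads enough for a share were below 1%, while 200 were above 10% and 54 above 50%. In LNCaP95, 304 of 704 were below 1% and in 22Rv1 284 of 704. The 5 members with the highest share of control reads were C19orf18, RPL26L1, CCDC71, LRRC37A3 and PHOSPHO2, a rule that picks high values, so these are given as a description. RPL26L1, a paralog of the ribosomal protein gene RPL26, had 1279, 1533 and 1443 reads in its window in LNCaP CTRL sh libraries against 97, 205 and 140 reads in its 3' UTR. Its share was 93.0, 88.2 and 91.2% there and 82.9 to 91.7% after knockdown. All member windows together held 11048, 12578 and 11309 reads in these controls. RPL26L1 thus carried part of the pooled share, and it was left in. The window of RPL26L1, chr5:172397074-172407073, holds an exon of another gene in the newer annotation, and as a paralog its reads are uncertain. PHOSPHO2, a phosphatase gene, had a share of 78.3, 81.2 and 79.9% in LNCaP controls and 78.0 to 88.8% after knockdown, so control and knockdown libraries overlapped. The window of PHOSPHO2 overlaps an intron of another gene, and that of CCDC71 holds an exon of another gene, so their reads are uncertain too. At the limit of the rule, INTS1, GMNN and ZNF335 had a Length of 600, and USP16 and NFIL3 of 601 and NPDC1 of 602. Their shares in LNCaP controls were 6.82, 4.65 and 1.51% inside the limit and 2.31, 28.0 and 0.65% outside it.

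The change was then tested gene by gene, by asking whether a gene's 10 kb reads relative to its 3' UTR reads differed between 3 CTRL sh and 6 knockdown libraries of a line. The fit (edgeR quasi-likelihood, Benjamini-Hochberg adjusted over all genes tested, threshold 0.05) scaled each table by its own typical gene. This took out only part of the general rise, since the median gene tested still rose by 0.33, 0.59 and 0.34 (log2) in LNCaP, LNCaP95 and 22Rv1. A higher call thus need not exceed the general rise. In LNCaP 505 members were tested, of which 47 (9.31%) had a higher and 12 (2.38%) a lower ratio after knockdown, where 8.72 and 1.82% of all genes tested were called. In LNCaP95 106 of 543 (19.5%) were higher and 38 (7.0%) lower, against 22.8 and 6.23% of all genes. In 22Rv1 33 of 544 (6.07%) were higher and 4 (0.735%) lower, against 6.86 and 0.725%. The members' shares of calls were near those of all genes. Median log2 changes were 0.30, 0.46 and 0.22 for the members and 0.33, 0.59 and 0.34 for all genes tested. For 11, 22 and 23 of the tested members no 10 kb read was seen in any control library of LNCaP, LNCaP95 and 22Rv1, and with these set at their bound the medians were 0.26, 0.43 and 0.14.

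With both tables scaled instead by the summed library sizes and the factors of the 3' UTR table, the general rise stayed in the values. LNCaP then gave 78 higher and 7 lower members, LNCaP95 229 higher and 12 lower, and 22Rv1 112 higher and 0 lower. Of all genes tested 15.5, 46.9 and 25.3% were higher and 0.577, 1.4 and 0.129% lower. All 47, 106 and 33 higher calls of the members were also higher with this scaling. The median log2 change was 0.68, 1.39 and 0.83 for the members and 0.75, 1.51 and 0.97 for all genes tested. Of the 12, 38 and 4 lower calls, 7, 12 and 0 were also lower with it. A lower call in the first fit thus means a smaller rise or a fall relative to the typical gene.

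Of the 709 members, 443 were tested in all lines and 91 in none. The ratio was higher in all 3 lines for 17 of these 443 members, where 272 of 8485 genes tested in all lines were. Of the 618 members tested in at least 1 line it was higher in 2 lines for 30 and in 1 line for 75, against 608 and 1778 of 11302 genes. It was lower in 2 lines for 11 and in 1 line for 32, against 97 and 644 genes. These shares were near those of all genes, apart from lower ratios in 2 lines, which were more frequent among members, a difference that was not tested. No member was lower in all lines, as 11 of all genes were, and no member was higher in one line and lower in another. With each hairpin alone, tested against the same controls, CPSF1 sh1 gave 43, 78 and 15 called members in LNCaP, LNCaP95 and 22Rv1 and CPSF1 sh2 50, 125 and 56, of which 35, 73 and 13 were called with both. No share over all genes is set beside these hairpin counts, so they do not set members apart from other genes. Among members with a higher ratio, 10 kb reads were themselves called higher in 39 of 47, 81 of 106 and 28 of 33, and 3' UTR reads called lower in 12, 30 and 3. Their median share went from 0.30 to 4.44% in LNCaP, from 0.36 to 6.54% in LNCaP95 and from 0.93 to 6.72% in 22Rv1. Among members with a lower ratio, 10 kb reads were called lower in 8 of 12, 23 of 38 and 3 of 4, and 3' UTR reads higher in 6, 16 and 0. Members in both sets were picked by the ratio of the same counts, so such shifts are in part built in. The matching counts over all called genes are not given here.

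HSPA8, the constitutive member of the HSP70 chaperone family, had 4, 2 and 3 reads in its 10 kb window (chr11:122917898-122927897) in LNCaP CTRL sh libraries. After knockdown it had 20 to 108 reads with a median of 55. Its 3' UTR gave 11734, 17891 and 12791 reads in controls, so that the share went from 0.034, 0.011 and 0.023% to between 0.142 and 0.586%. Knockdown and control libraries did not overlap in any line. The ratio rose by 3.40 ± 0.51 (log2, SE, edgeR adjusted p = 1.9e-05) in LNCaP, by 3.23 ± 0.46 in LNCaP95 and by 3.66 ± 0.49 in 22Rv1. HSPA8 has processed pseudogene copies, so its reads are uncertain to that extent.

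PARP4, the poly(ADP-ribose) polymerase of vault particles, had the highest share after knockdown of the 10 genes in LNCaP95. In LNCaP95 its window held 8, 2 and 2 reads in controls and 64 to 137 after knockdown, against 201, 181 and 149 3' UTR reads in controls. Its share rose from 3.83, 1.09 and 1.32% to 23.0 to 52.4% with a median of 39.8%. The log2 change of the ratio was 3.41 ± 0.61 in LNCaP, 3.84 ± 0.49 in LNCaP95 (edgeR adjusted p = 4.2e-07) and 3.45 ± 0.65 in 22Rv1, while 3' UTR reads were not called in any line.

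LDHB, the lactate dehydrogenase subunit that favours pyruvate formation, had shares of 0.283, 0.054 and 0% in LNCaP controls and 0.688 to 2.50% after knockdown. In 22Rv1 they were 0.356, 0.146 and 0.230%, and 1.39 to 2.82% after knockdown. Its ratio rose by 3.35 ± 0.65, 3.44 ± 0.54 and 2.67 ± 0.39 in LNCaP, LNCaP95 and 22Rv1 (edgeR adjusted p = 0.00054, 1.1e-05 and 3.1e-05). S100A11, a calcium-binding protein, had 13, 9 and 2 window reads in LNCaP95 controls and 73 to 158 after knockdown. In the fit the ratio of S100A11 rose by 2.65 ± 0.49 in LNCaP, 2.66 ± 0.42 in LNCaP95 and 4.90 ± 0.74 in 22Rv1. In 22Rv1 the controls of S100A11 held 2 window reads in all, so the raw fold of 47.9 had a 95% counting interval of 13.2 to 397.

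ZNF32, a zinc finger protein, had 1 window read in each LNCaP control and 11 to 25 after knockdown. The share of ZNF32 in LNCaP95 went from 0.558, 0.471 and 0.614% to 6.41 to 18.2%. Its ratio was called higher in LNCaP and LNCaP95 and not in 22Rv1 (log2 2.17 ± 1.04, edgeR adjusted p = 0.20). MYEOV2, which encodes a subunit of the COP9 signalosome, had 1, 0 and 2 window reads in LNCaP controls and 14 to 39 after knockdown. The raw fold of MYEOV2 was 21.3 (95% counting interval 7.13 to 105) in LNCaP. A gap of 4263 bases lies between its 3' UTR region and its window. SLC25A5, a mitochondrial ADP/ATP carrier with pseudogene copies, had 0, 1 and 0 window reads in LNCaP controls and 8 to 15 after knockdown. Without 22Rv1 CTRL sh BR3 the call of SLC25A5 in 22Rv1 was lost (2.83 with and 2.24 without it). All 3 genes had higher knockdown than control shares in every library of LNCaP.

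GMNN, the replication licensing inhibitor geminin, stood at the limit of the rule with a Length of 600. In LNCaP95 no window read was seen in controls, against 114, 167 and 139 3' UTR reads, and 13 to 31 window reads per library were seen after knockdown. The ratio of GMNN was there at least 15.2-fold higher, with a floor of 3 counts over the control group, which covers counting error only. In LNCaP its shares were 5.80, 4.35 and 3.8% in controls and 1.70 to 13.2% after knockdown, so the groups overlapped (log2 0.32 ± 0.68, edgeR adjusted p = 0.82). In 22Rv1 the ratio of GMNN rose by 1.92 ± 0.58 (edgeR adjusted p = 0.037), a call lost when any of CTRL sh BR1, BR2 or BR3, CPSF1 sh1 BR1 or CPSF1 sh2 BR2 was left out (1.42 to 3.28).

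**Figure D3:**
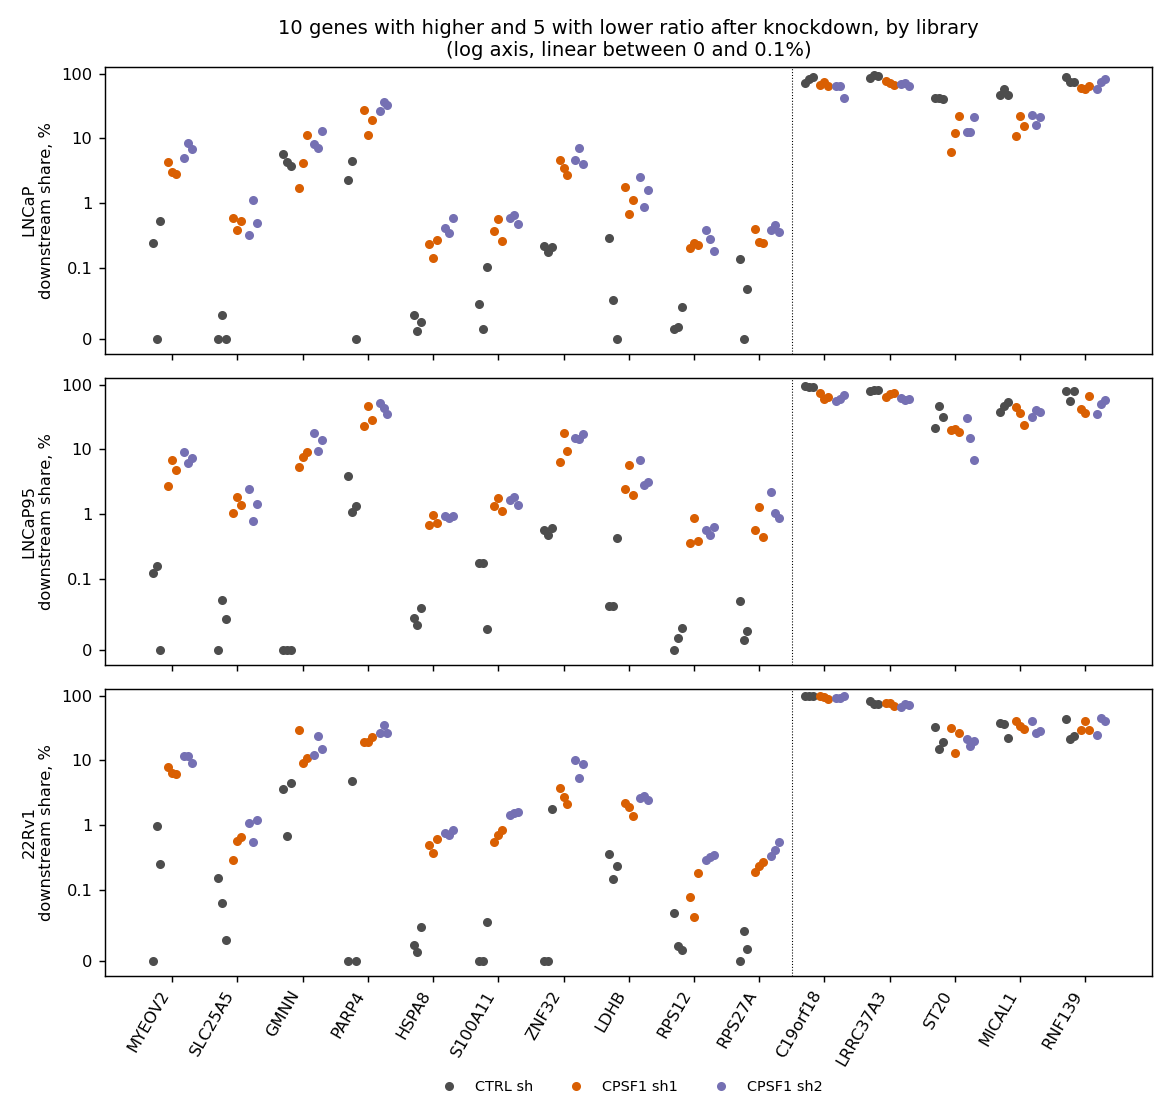
Downstream share (percent, log axis that is linear between 0 and 0.1%) of the 10 members with a higher and the 5 with a lower ratio picked by the rule for named genes, with 1 point per library coloured by hairpin, for LNCaP, LNCaP95 and 22Rv1 from top to bottom. For HSPA8 all knockdown points lie above all control points in each line, while C19orf18 and LRRC37A3 lie high in all groups.

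The 5 members with a lower ratio by the same rule had 446 to 2030 3' UTR reads over the 27 libraries, where the median member had 3530. In the newer annotation the windows of C19orf18, ST20, MICAL1 and RNF139 each hold an exon of another gene, and that of RNF139 also an exon of its own, while the window of LRRC37A3 holds none. Among the 10 members with a higher ratio the windows of HSPA8, LDHB and SLC25A5 hold an exon of another gene. Reads of such exons cannot be told apart from reads past the end of the member. C19orf18 had 17, 13 and 8 3' UTR reads in LNCaP controls and 15 to 61 after knockdown, while its window (chr19:58459506-58469505) held 44, 70 and 73 reads and 27 to 98. Its share fell from 72.1, 84.3 and 90.1% to 41.9 to 74.3%, so the groups overlapped slightly, and its ratio fell by 1.94 on the log2 scale (SE 0.50, edgeR adjusted p = 0.0088). That call of C19orf18 was lost without LNCaP CTRL sh BR2 (−1.82) or BR3 (−1.55), and in LNCaP95 the ratio fell by 3.81. LRRC37A3, of a family with near-identical copies whose reads are uncertain, had 12, 6 and 7 3' UTR reads in LNCaP controls and 17 to 64 after knockdown. The 3' UTR reads of LRRC37A3 rose by 2.13 ± 0.36 (log2, edgeR adjusted p = 0.00053), whereas its 10 kb reads were not called.

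ST20 and MICAL1, the latter an actin-oxidising enzyme, had lower shares in all LNCaP knockdown libraries. ST20 shares were 43.1, 42.9 and 41.5% in LNCaP controls and 6.25 to 22.0% after knockdown, and those of MICAL1 46.4, 58.0 and 47.1% and 11 to 23.5%. For both genes the groups did not overlap there. Their 3' UTR reads rose by 1.58 ± 0.23 and 1.54 ± 0.28 (edgeR adjusted p = 0.0001 and 0.00082), and their 10 kb reads fell (adjusted p = 0.035 and 0.004). In LNCaP95 the lower ratio of MICAL1 (−1.54, edgeR adjusted p = 0.038) passed in 3 of 9 fits that each left out a library, and was lost without CTRL sh BR2 or BR3, CPSF1 sh1 BR3 or any CPSF1 sh2 library. RNF139, a ubiquitin ligase of the endoplasmic reticulum, differed in that its 10 kb reads fell, by 1.27 on the log2 scale in LNCaP and by 2.27 in LNCaP95, while its 3' UTR reads were not called. The lower ratio of RNF139 in LNCaP (−1.45) was lost without CTRL sh BR1 (−1.04). In 22Rv1 none of the 4 tested had a lower ratio called, and C19orf18, without 3' UTR reads in its controls, was not tested.

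Members with the most 3' UTR reads were ribosomal protein genes and HSPA8. The 15 cytoplasmic ribosomal protein genes among the members, of 79 on the list, had a pooled share of 0.044, 0.052 and 0.036% in controls of LNCaP, LNCaP95 and 22Rv1 and 0.20, 0.36 and 0.14% after knockdown. Of 13, 14 and 13 tested, 7, 7 and 2 had a higher ratio and none a lower one, where 8.72, 22.8 and 6.86% of all genes were higher. The median log2 change of their ratio was 1.43, 1.49 and 1.35, beside 0.33, 0.59 and 0.34 for all genes tested. Middle-length genes of the same list rose as well. By the share of the median gene, knockdown over control was 4.40, 9.60 and 4.90 for the 15 members. It was 3.88, 5.57 and 5.17 for 41 middle-length genes of the list. RPS12, of the small subunit, had 3, 5 and 10 window reads in LNCaP controls against 21215, 28956 and 22109 3' UTR reads, and 28 to 89 window reads after knockdown. Its ratio rose by 2.86 ± 0.45, 4.10 ± 0.65 and 2.28 ± 0.57 in the 3 lines (edgeR adjusted p = 4.1e-05, 1.3e-05 and 0.011). RPS27A, which encodes a ubiquitin fusion protein, rose by 1.97 ± 0.53, 3.76 ± 0.53 and 3.15 ± 0.61. In 22Rv1 the shares of RPS12 overlapped (0.016 to 0.068% in controls, 0.062 to 0.339% after knockdown) and its call was lost without CTRL sh BR2 (2.23) or BR3 (1.89), as was that of RPS27A in LNCaP without CTRL sh BR2 (1.31). RPL27 rose by 1.72 ± 0.52 in LNCaP and 1.48 ± 0.53 in LNCaP95 and gave 0.21 ± 0.82 in 22Rv1, the calls being kept in 5 and 3 of 9 fits that each left out a library. RPLP2 had 4, 3 and 1 window reads in LNCaP controls and 0 to 4 after knockdown, so its groups overlapped. The windows of RPL27 and RPLP2 each hold an exon of another gene in the newer annotation. Ribosomal protein genes have many processed pseudogenes, and how reads were shared among copies was not tested.

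Other housekeeping groups were followed in the same way, and their counts can be read against the 8.72, 22.8 and 6.86% of all genes with a higher and the 1.82, 6.23 and 0.725% with a lower ratio. Of 16 oxidative phosphorylation subunits (of 78 listed), 2 of 14, 8 of 15 and 2 of 16 tested had a higher ratio, and 0, 1 and 1 a lower ratio. ATP5B, the beta subunit of ATP synthase, rose in LNCaP95 (1.47 ± 0.57, edgeR adjusted p = 0.047, kept in 3 of 9 fits that each left out a library), and ATP5I, another subunit, gave −0.19 ± 0.44 there. Of 14 mitochondrial ribosomal protein genes (of 77), 1 of 10, 4 of 11 and 1 of 12 were higher and none lower. MRPS15 gave −0.04 ± 0.32, 0.18 ± 0.33 and −0.26 ± 0.31 and was not called. Of 5 proteasome subunits (of 36), 1 of 4, 4 of 5 and 0 of 4 were higher. Their pooled control shares of 2.84, 1.26 and 3.69% were above the 0.44, 0.39 and 0.81% of middle-length genes of that list. Oxidative phosphorylation members were also above theirs (3.13, 1.27 and 1.85% against 1.02, 0.83 and 1.52%). Mitochondrial ribosomal members were below (1.61, 0.89 and 2.56% against 2.32, 2.15 and 3.41%). PSMB1, a subunit of the proteasome core, had shares of 1.81, 2.57 and 2.81% in LNCaP controls and 6.58 to 16.1% after knockdown (log2 1.80 ± 0.36, edgeR adjusted p = 0.00084), and 1.35, 1.11 and 1.21% in LNCaP95 controls and 6.12 to 11.2% after knockdown. In the newer annotation the windows of ATP5B and PSMB1 each hold an exon of another gene.

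GAPDH and LDHB were the 2 glycolysis enzymes of 17 listed. GAPDH had 3, 0 and 7 window reads in LNCaP controls and 0 to 4 after knockdown, and its ratio was not called in any line. In LNCaP95 its 3' UTR reads fell from 24370, 16333 and 21974 to between 4345 and 9483 (log2 −1.47 ± 0.15, edgeR adjusted p = 1.3e-06). SNRPD2, a core protein of spliceosomal snRNPs, rose in LNCaP95 (2.75 ± 0.59, edgeR adjusted p = 0.00057), and SNRPC, of the U1 snRNP, was not called. Of the 3 RNA polymerase subunits none was higher in any line and 1 was lower in LNCaP95.

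Replication-dependent histone genes end at a stem-loop and are usually not polyadenylated, which sets them apart from the other members. An inverted repeat with a stem of 6 bases and a loop of 4 was searched for in the last 50 bases. It was found in 3 of the 5 histone members, in 3.24% of all members and in 3.51% of all 19540 rows. For these 3 genes the repeat is printed in capitals, since neither hexamer was found there.
HIST1H1C: aaacccaaaaGGCTCTTTTCAGAGCCacca
HIST1H2AM: aagacaaaaGGCTCTTTTCAGAGCCaccca
HIST2H2AC: aagaccaaaGGCTCTTTTTAGAGCCaccca
These lie at chr6:26055968-26055997 and chr6:27860477-27860506, both on the minus strand, and at chr1:149858932-149858961 on the plus strand. HIST1H1C, a linker histone, had 322, 397 and 280 3' UTR reads in LNCaP controls and 492 to 1447 after knockdown, a rise of 1.58 ± 0.13 (log2, edgeR adjusted p = 2.5e-07). In LNCaP95 its 3' UTR reads fell by 0.34 on the log2 scale (adjusted p = 0.04) and in 22Rv1 they rose by 1.88 (adjusted p = 0.0022). HIST1H4C, a core histone, had 0 window reads in all 9 control libraries and at most 1 in a knockdown library, against 803 to 3077 3' UTR reads in the controls. Of the histone members tested for the ratio, 0 of 4, 0 of 3 and 1 of 3 were called higher, where 8.72, 22.8 and 6.86% of all genes were.

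Members with AATAAA in the last 50 bases gave 28 of 311, 67 of 341 and 22 of 338 higher calls in the 3 lines. Members without it gave 19 of 194, 39 of 202 and 11 of 206. Of all genes tested, 8.72, 22.8 and 6.86% were called higher and 1.82, 6.23 and 0.725% lower. The calls were also counted by what the newer annotation places in the window. For 420 members with no annotated exon in the window the pooled share went from 1.16 to 2.17% in LNCaP, from 0.96 to 3.05% in LNCaP95 and from 1.5 to 2.75% in 22Rv1. They gave 33 higher and 4 lower calls of 306 tested, 73 and 9 of 331, and 23 and 0 of 327. For 211 members whose window held an exon of another gene only, the shares were 3.68 and 4.15%, 3.01 and 4.40%, and 3.14 and 3.88%, and the calls 9 and 6 of 135, 15 and 27 of 148, and 5 and 3 of 150. In LNCaP 3 of 6 knockdown libraries lay above all controls for that group. The shares of 1083 middle-length genes with such windows were 4.12 and 5.36%, 4.15 and 6.58%, and 4.60 and 6.45%. Calls by window are given for members only, so whether they set members apart from other genes is not known. For 60 members with an exon of their own in the window, control shares were 6.16, 5.72 and 8.63%. For 548 middle-length genes with such windows they were 6.08, 5.7 and 8.19%, so the lower share of members was not seen there. The part of such exons in the results was not tested.

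**Figure D4:**
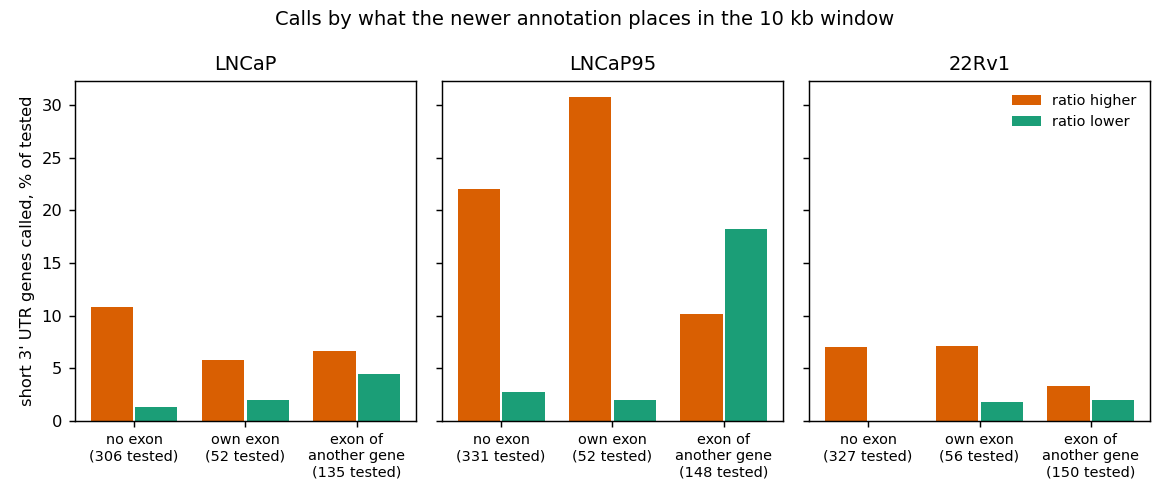
Members with a higher or lower ratio after knockdown, as a percentage of those tested in each line, by what the newer annotation places in the 10 kb window. Lower calls in LNCaP95 are 18.2% of the members with an exon of another gene only and 2.72% of those with no exon. Of all genes tested in LNCaP95, 6.23% were called lower, and other genes are not split by window here.

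The remaining regions of the same genes were counted as well. In the 10 kb table alone LNCaP had 60 higher and 39 lower members of 540 tested, against 9.8 and 4.82% of all genes. LNCaP95 had 95 higher and 60 lower of 584, against 18.4 and 9.46%, and 22Rv1 40 higher and 20 lower of 571, against 7.53 and 2.51%. Counts at the 3' UTR were higher for 46 members (7.13%) and lower for 107 (16.6%) of 645 in LNCaP, against 8.17 and 10.2% of all genes. For LNCaP95 these were 76 (11.7%) and 126 (19.3%) of 652, against 14.8 and 15.6%, and for 22Rv1 3 and 10 of 645, against 0.687 and 0.783%. Intron reads of the members were higher in 19 and lower in 25 of 368 in LNCaP (8.43 and 5.95% of all genes), in 28 and 50 of 385 in LNCaP95 (12.9 and 11%) and in 7 and 5 of 382 in 22Rv1 (2.75 and 1.6%). Coding sequence reads were higher in 7 and lower in 11 of 208 in LNCaP (3.55 and 3.31%), in 12 and 11 of 201 in LNCaP95 (7.81 and 4.9%) and in 0 and 2 of 197 in 22Rv1 (0.567 and 0.425%).

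The lines were compared in 1 fit over the 27 libraries. The control ratio differed in 36 of 580 members between LNCaP and LNCaP95, in 63 between LNCaP and 22Rv1 and in 123 between LNCaP95 and 22Rv1, where 6.44, 10 and 17.9% of all genes were called. S100A10, an annexin partner, had 735, 2399 and 3010 3' UTR reads in 22Rv1 controls but 1, 0 and 0 in LNCaP95 controls, so its ratio there rests on few reads. VWA5B2 had 29, 20 and 39 window reads and 80, 116 and 164 3' UTR reads in 22Rv1 controls, and 39, 53 and 32 window reads with 1, 0 and 0 3' UTR reads in LNCaP controls. The window of VWA5B2 overlaps introns of other genes, whose reads cannot be told apart from its own. PLA2G2A, a secreted phospholipase, had 91, 87 and 101 3' UTR reads in LNCaP controls and 0 in every 22Rv1 control, where its window held 4, 23 and 33 reads.

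The response to knockdown differed in 10 members between LNCaP and LNCaP95, in 0 between LNCaP and 22Rv1 and in 5 between LNCaP95 and 22Rv1, where 1.05, 0.164 and 2.28% of all genes were called (edgeR). Between LNCaP and 22Rv1 71 members had an unadjusted p under 0.05 (edgeR). The share of all genes at that threshold is not given here, so this count does not set members apart. The comparisons share libraries, and the genes below were chosen after their values were seen. SARS, seryl-tRNA synthetase, had 3, 5 and 8 window reads in LNCaP controls and 75 to 201 after knockdown, and in LNCaP95 19, 47 and 53 and 117 to 292. The ratio of SARS rose by 4.36 ± 0.42 in LNCaP and 1.86 ± 0.38 in LNCaP95 (difference −2.47 ± 0.61, edgeR adjusted p = 0.030). DDIT3, a stress-induced transcription factor, had 3172, 2650 and 2511 3' UTR reads in LNCaP95 controls and 519 to 1115 after knockdown, while its window reads went from 7, 7 and 16 to between 49 and 83. Its ratio rose by 3.61 ± 0.39 there and gave 0.92 ± 0.52 in LNCaP (difference 2.73 ± 0.65, edgeR adjusted p = 0.021). GDF15, a stress-responsive cytokine, had 58640, 47638 and 41337 3' UTR reads in LNCaP95 controls and 4163 to 12563 after knockdown, with 20, 22 and 21 and then 49 to 92 window reads. The ratio of GDF15 rose by 3.34 ± 0.36 in LNCaP95 and gave −1.43 ± 0.82 in 22Rv1 (difference −4.68 ± 0.98, edgeR adjusted p = 0.0034). MAGOH, of the exon junction complex, had 56, 43 and 92 window reads in LNCaP95 controls and 14 to 34 after knockdown, and its ratio changed by −2.32 ± 0.36 there and by −0.30 ± 0.38 in LNCaP (difference −1.99 ± 0.50, edgeR adjusted p = 0.031).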

How the data were processed

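Per the labels and the study's methods, the authors aligned PAC-seq reads with HISAT2 2.1.0 to hg19 and counted them on the same strand, by the 3'-most base of a read, with featureCounts of Subread (2.0.3 per the labels, where the study's methods name another version), and the deposited values were raw counts per gene and region. The 3' UTR regions carried a 300-base extension and the 10 kb regions excluded exons. How a base lying in regions of several genes was counted is not given in the sources used here. Members, gene lists and the rules for named genes were chosen with earlier results of these data known. Genes were kept above 2 CPM and tested with edgeR 4.0.16 in R 4.3.3, 3 control against 6 knockdown libraries per line. The ratio fit joined the 10 kb and 3' UTR counts of each library, with library as a term and each table scaled by its own TMM factors. The comparison of lines used 27 libraries. Named genes were members called in at least 2 lines in 1 direction with at least 10 window reads on average (10 highest, 5 lowest), those with most 3' UTR reads, with the highest control share, with the largest control difference between lines and at the Length limit, and the list members with most reads. Intervals of raw folds are 95% conditional exact intervals of the odds ratio and, like the floor of 3 counts, cover counting error only. On simulated LNCaP counts the ratio fit over 9310 genes recovered 31 of 50 4-fold and 7 of 50 2-fold rises, with 0 false calls. Falls were recovered for 20 of 45 genes at 0.25-fold and 6 of 46 at 0.5-fold. The simulation gave every gene the same spread, so its false calls need not hold for the real counts. DESeq2 1.42.0, another scaling, a replicate block, each hairpin alone and leaving out each library were tried. Sequences were read from hg19 and current exons from a newer annotation, in which 691 of 709 symbols were found.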

Additional observations from a re-analysis of the deposited data

Results flagged for a closer look

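Of 51 groups of 6 knockdown libraries tested for a sample far from the others, 3 had such a sample, and chance alone gives about 1 in 20 groups. The pooled share of middle-length genes was 11.08% in LNCaP CPSF1 sh2 BR2 and 4.83 to 5.91% in the other LNCaP knockdown libraries. RPS2 gave 45167 10 kb reads in LNCaP CPSF1 sh2 BR2, and without RPS2 the highest LNCaP knockdown share was 6.72%. SLC25A5 had a share of 1.11% in LNCaP CPSF1 sh2 BR2 and 0.32 to 0.59% in the others. C19orf18 had a share of 41.9% in LNCaP CPSF1 sh2 BR3 and 64.3 to 74.3% in the others.

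For GMNN the response of the ratio differed between LNCaP and LNCaP95 by 8.67 on the log2 scale (edgeR adjusted p = 0.044). This value was fitted against LNCaP95 controls without any window read and is no bound on the difference.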

How the results depend on the processing

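Scaling both tables by summed library sizes gave LNCaP 78 higher and 7 lower ratios, LNCaP95 229 and 12 and 22Rv1 112 and 0, 97 and 10, 218 and 10, and 105 and 2 calls for 10 kb reads, and 28 lower calls for 3' UTR reads in 22Rv1. DESeq2 gave 30 higher ratios in LNCaP and 20 in 22Rv1, and 11 higher and 23 lower 3' UTR calls in 22Rv1. The replicate numbers did not pair the libraries (correlations of deviations −0.28 to 0.42), and with a replicate block 45 and 10, 103 and 32, and 30 and 4 ratios were higher and lower.

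Without cytoplasmic ribosomal protein genes the pooled share rose by 1.21 points in LNCaP and 2.62 in LNCaP95, and short minus middle-length genes in controls was −1.97, −1.73 and −2.15 in LNCaP, LNCaP95 and 22Rv1. By the median gene the rises were 2.82 in LNCaP95 and 2.85 in 22Rv1 and the control differences −1.26 in LNCaP and −0.95 in LNCaP95. With at least 2700 3' UTR reads the rise was 1.68 in LNCaP95 and the differences −1.43, −1.0 and −1.0, and with a Length of 500 or less they were 2.01 and −2.61, −1.75 and −2.11. With windows of at least 9000 bases the rise was 2.44 in LNCaP95 and the differences −1.57 in LNCaP and −1.64 in LNCaP95. Without RPS2, chosen after seeing the data, the LNCaP difference was −1.34. With a Length of 500 or less the pooled log2 ratio rose by 0.69, 1.25 and 0.66 in the 3 lines, beside 0.61, 1.24 and 0.72 for middle-length genes. The cause of these shifts was not tested.

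Leaving out each library in turn gave LNCaP 33 to 50 higher and 6 to 15 lower ratios, LNCaP95 81 to 108 and 29 to 39, and 22Rv1 16 to 39 and 0 to 7. The 22Rv1 count of higher ratios was 21 without CTRL sh BR2 and 16 without CTRL sh BR3, and the LNCaP count of lower ratios 6 without CTRL sh BR1. The 22Rv1 count of lower ratios was 7 without CTRL sh BR1 or CPSF1 sh1 BR1, 2 without CTRL sh BR2 or BR3, 1 without CPSF1 sh1 BR3 or sh2 BR3 and 0 without CPSF1 sh2 BR2. Lower 10 kb calls were 23 in LNCaP without CTRL sh BR2, and in 22Rv1 13 without CTRL sh BR2, CPSF1 sh2 BR2 or sh2 BR3 and 11 without CTRL sh BR3. In LNCaP higher 3' UTR calls were 25, 28 and 28 without CTRL sh BR1, BR2 and BR3 and 72 without CPSF1 sh2 BR2, and lower ones 66 without CTRL sh BR1. In 22Rv1 higher 3' UTR calls were 7 without CTRL sh BR1 and 6 without CPSF1 sh1 BR1, and lower ones 21 without either and 4 without CTRL sh BR3. For 10 kb reads the ranges were 43 to 64 and 23 to 46, 85 to 100 and 48 to 60, and 30 to 41 and 11 to 26, and for 3' UTR reads 25 to 72 and 66 to 125, 54 to 84 and 85 to 138, and 2 to 7 and 4 to 21. The pooled rise was 0.88 to 1.05, 1.96 to 2.34 and 1.07 to 1.40 points, and the control difference −2.10 to −1.16, −1.39 to −1.37 and −1.58 to −1.39. Of 1491 values of 41 named genes under the alternatives, 1401 kept their direction and side of the threshold, 70 lost and 20 gained the call and 0 reversed.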
